A study of Macaca fascicularis with 2 samples.

Results

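The cells described are 178 of the 20967 cells (0.849%, exact 95% binomial interval 0.729 to 0.983%) of a single-cell RNA-seq table of fetal ovary from Macaca fascicularis, the cynomolgus monkey. They were selected on their own counts of unique molecular identifiers (UMIs, each standing for 1 captured RNA molecule), as cells with at least 2 UMIs of COX4I2, at least 2 UMIs of ACTA2, at least 1 UMI of PDGFRB or KCNJ8 and 0 UMIs of PECAM1. This rule was meant to collect pericytes and vascular smooth muscle. Of the 178 cells, 104 held at least 2 UMIs of AMHR2, the study's granulosa cell marker, so they are called COX4I2+ ACTA2+ cells. This majority does not hold under the study's limit of 200 to 3000 genes per cell. Within that limit, 44 of 56 selected cells had 0 UMIs of AMHR2. Cells with 0 UMIs of AMHR2 were also shallower, with a median of 7431.5 UMIs against 22918.5 in the 104, and AMHR2 can be missed in shallow cells.

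Whole ovaries came from 1 fetus at E84 and 1 fetus at E116, untreated as far as the labels say, and both ovaries of a fetus were dissociated together into 1 library without sorting. The barcodes end in 1 or 2, and nothing ties an ending to a stage, so no result is given by stage. The endings served as technical batches without a label. There are no replicates, so no test was made, and the intervals given cover counting error alone and say nothing of how animals differ.

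Pericytes and vascular smooth muscle cells, together called mural cells, wrap the endothelial tube of small and larger vessels, respectively. Endothelial PDGFB acts on their receptor PDGFRB to recruit them, and endothelial JAG1 acts on their receptor NOTCH3 to drive maturation. Smooth muscle cells are known for contractile proteins such as ACTA2 and MYH11, and pericytes for KCNJ8, ABCC9, HIGD1B and RGS5.

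The 178 cells held 3347473 UMIs, with a median of 14379 UMIs (range 1835 to 103034) and 3967.5 genes per cell, against a median of 3756 UMIs over all cells. Of them, 122 had more than 3000 genes. The median share of mitochondrial UMIs was 13.5%. Barcode ending 2 held 175 of its 10346 cells (1.69%, 1.45 to 1.96%) and ending 1 held 3 of its 10621 (0.0282%, 0.00583 to 0.0825%). The COX4I2+ ACTA2+ cells thus came almost wholly from 1 barcode ending. Over all cells, median depth was 3130 UMIs in ending 1 and 4555.5 in ending 2, and these shares were not corrected for it. Over all cells, 27 barcode sequences occurred with both endings, and 2 selected cells carried such a sequence, though no pair of selected cells shared one.

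Of the genes that chose the cells, COX4I2, a subunit isoform of the respiratory chain's cytochrome c oxidase, ranged from 2 to 29 UMIs per cell with a median of 5. ACTA2, smooth muscle alpha-actin, had the same median of 5 but reached 334. PDGFRB was found in 172 cells, with a median of 2 UMIs and up to 21. KCNJ8, a potassium channel subunit, was found in 44 cells with at most 4 UMIs, and 6 cells entered through KCNJ8 alone. Since a fixed number of UMIs is a higher level in a shallow cell than in a deep one, the rule asks for more of these genes in shallow cells.

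At the edge of the rule, 69 cells held exactly 2 UMIs of COX4I2 or of ACTA2, and 109 held 3 or more of both. Their ACTA2 levels were 359 and 1037 CPM (UMIs of the gene per 1000000 UMIs of the group). Just outside, 173 cells had 1 UMI of either gene and met every other condition, at 204 CPM ACTA2. A further 45 cells held at least 2 UMIs of both genes and no PECAM1 but lacked PDGFRB and KCNJ8, and 49 were left out for PECAM1 alone. TINAGL1, a matrix protein gene the rule did not use, stood at 158 CPM in the 109 cells, 35.5 in the 69, 18.9 in the 173 and 24.7 in the 45.

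The check against markers of other cell types divided the selected cells. AMHR2, the receptor for anti-Müllerian hormone and the marker of granulosa cells in the study, was found in 114 of 178 cells (64.0%, 56.5 to 71.1%). It was found in 12.1% of endothelial cells (36 of 298), 15.6% of stromal cells (344 of 2206) and 24.8% of all other cells (5149 of 20789). Median depths were 9692.5 UMIs in endothelial and 5210.5 in stromal cells, both below that of the selected cells. The comparison cells were defined by UMI rules too: endothelial by PECAM1 and at least 2 UMIs of CDH5, KDR, EGFL7 or TIE1, and stromal by PDGFRA or TCF21 with DLK1, LUM, POSTN, C7 or OGN, both without COX4I2. After every cell was thinned to 2000 UMIs, AMHR2 was still found in 49 of 177 selected cells (27.7%), 1 shallower cell being left out. At this depth it was found in 78 of 1321 stromal cells of barcode ending 2 (5.90%). The shares of the other groups above are those at full depth.

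AMHR2 was at 0 in 64 cells (36.0%, 28.9 to 43.5%), at 1 UMI in 10 and at 2 or more in 104 (58.4%, 50.8 to 65.8%). The 64 are called AMHR2-free and the 104 AMHR2-bearing below. This division was made after the data were seen. The AMHR2-free cells were shallower, with a median of 7431.5 against 22918.5 UMIs, and had fewer mitochondrial UMIs, with a median of 7.48% against 15.3%. More than 3000 genes were found in 20 of the 64 and in 97 of the 104. Within 200 to 3000 genes, 44 of 56 selected cells were AMHR2-free, and so were 52 of the 59 with at most 10% mitochondrial UMIs. By depth, 21 of 22 cells under 5000 UMIs were AMHR2-free, 30 of 46 from 5000 to 10000, 7 of 43 from 10000 to 20000, and 6 of 67 from 20000 upward. Depth and AMHR2 status thus moved together in these cells, and the part of depth in the division was not tested beyond the thinning. Over the whole table, 513 of the 945 cells with at least 2 COX4I2 UMIs (54.3%) held at least 2 of AMHR2. The study reports COX4I2 as specific to a granulosa cell cluster, in which ADIRF, CBLN2 and LYPD1 also peaked.

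**Figure D1:**
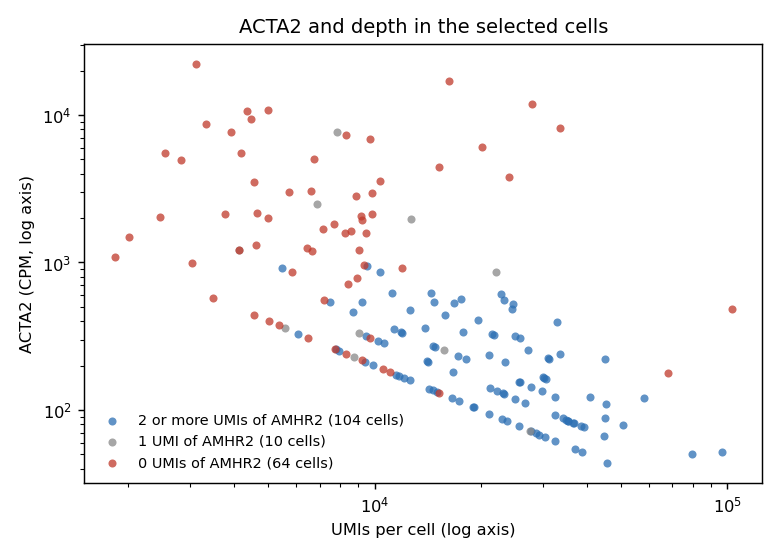
ACTA2 level (CPM, log axis) of each of the 178 selected cells against its number of UMIs (log axis), coloured by AMHR2 UMIs. AMHR2-free cells lie mostly at lower depth and reach the highest ACTA2 levels, and the lower edge of the cloud is set by the minimum of 2 UMIs.

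From here, levels are those of barcodes ending in 2, which hold 62 AMHR2-free and 103 AMHR2-bearing cells, 1363 stromal cells, 190 endothelial cells and 1193 cells called AMHR2+ cells, which hold at least 2 UMIs of AMHR2 and none of COX4I2 or PECAM1. Ratios were taken after adding 10 CPM to both levels and understate the change of low genes. A gene was called higher or lower at a ratio of at least 4 in either direction. Levels of 1 gene are compared between groups, not with other genes.

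Within the rule's own genes, the median AMHR2-free cell had 1653 CPM ACTA2, 836 CPM COX4I2 and 497 CPM PDGFRB. The median AMHR2-bearing cell had 170.0, 253 and 98.5 CPM. These differences in part follow from the rule, since median depths were 7164.5 and 22781 UMIs. In UMIs, the medians of AMHR2-free and AMHR2-bearing cells were 12 and 4 for ACTA2, 5 and 5 for COX4I2, and 3 and 2 for PDGFRB. After thinning to 2000 UMIs, ACTA2 was found in 80.3% of 61 AMHR2-free cells, 38.8% of 103 AMHR2-bearing cells, 5.05% of AMHR2+ cells and 12.8% of stromal cells. For TINAGL1 these shares were 65.6%, 0.971%, 0.428% and 1.06%. The ACTA2 shares follow from the rule. TINAGL1, which the rule did not use, was above both comparison groups in the AMHR2-free cells and close to their share in the AMHR2-bearing ones.

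The AMHR2-free cells held contractile and mural genes at levels above those of stromal cells. Against stromal cells 115 of 8376 genes (1.37% of those tested) were higher and 14 (0.167%) lower. A gene that is low in stromal cells enters these counts only if it is high in the selected cells. The highest ratio among named genes was that of TINAGL1, at 580 CPM (524 to 641, exact 95% Poisson interval) in 45 of 62 cells against 4.26 (3.13 to 5.66). PLAAT2 followed at 334 CPM (292 to 381) against 0.906, and RERGL, a small GTPase gene known from vascular smooth muscle, at 295 CPM (256 to 340) against 1.36. MEF2C, a transcription factor of muscle lineages, stood at 433 against 24.0 CPM and MAP3K7CL at 205 against 3.90 CPM.

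For the listed genes only those with at least 10 CPM in the stromal cells were counted, so that no gene entered for being high in the selected cells. This level was reached by 18 of 23 contractile genes, of which 12 were at least 2-fold higher in AMHR2-free than in stromal cells and 0 lower, with a median log2 ratio of 1.49. Over all 8143 genes outside the rule at this level, 256 (3.14%) were 2-fold higher, 195 (2.39%) lower, and the median was 0.00. TAGLN, an actin-binding protein of smooth muscle, stood at 1717 CPM (1619 to 1820) in 56 cells against 281 CPM. MYL9, a regulatory myosin light chain, stood at 1015 CPM (940 to 1095) in 60 cells against 260 CPM. MYH11, the smooth muscle myosin heavy chain, stood at 391 CPM (345 to 442) but was found in 33 of 62 cells, against 40.1 CPM. CNN1, calponin, was found in 18 cells at 64.5 CPM against 14.8, DES in 22 cells at 90.0 against 25.0, and ACTG2 in 20 cells at 93.0 against 10.5. TAGLN and MYL9 were therefore found in nearly every AMHR2-free cell and MYH11, CNN1, DES and ACTG2 in some.

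Of 19 pericyte genes in the table, 7 had at least 10 CPM in stromal cells. Of these, RGS5, NOTCH3 and HEYL were at least 2-fold higher in AMHR2-free cells and 0 were lower, with a median log2 ratio of 0.83. RGS5, which dampens G protein signalling, stood at 1056 CPM (979 to 1137) in 50 cells against 53.9 in stromal cells. It was as high in AMHR2-bearing cells, at 1162 CPM (1120 to 1205), and stood at 563 CPM in AMHR2+ cells, so it did not mark the AMHR2-free cells. The next genes were all under 10 CPM in stromal cells and are given by their values alone. HIGD1B was found in 22 of 62 AMHR2-free cells at 63.0 CPM (45.4 to 85.1), against 0.725 CPM in stromal cells and 0 UMIs in the AMHR2-bearing cells, a count that allows up to 1.20 CPM. NDUFA4L2, a mitochondrial protein of low oxygen, stood at 69.0 CPM in 22 cells against 5.98 CPM. CSPG4, the NG2 proteoglycan, stood at 87.0 CPM in 27 cells against 3.63 CPM. The channel partner of KCNJ8, ABCC9, was found in 10 cells at 15 CPM, with at most 1 UMI in a cell. AGTR1, an angiotensin receptor, had 0 UMIs here, which allows up to 4.5 CPM, and CD248 had 2 UMIs.

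**Figure D2:**
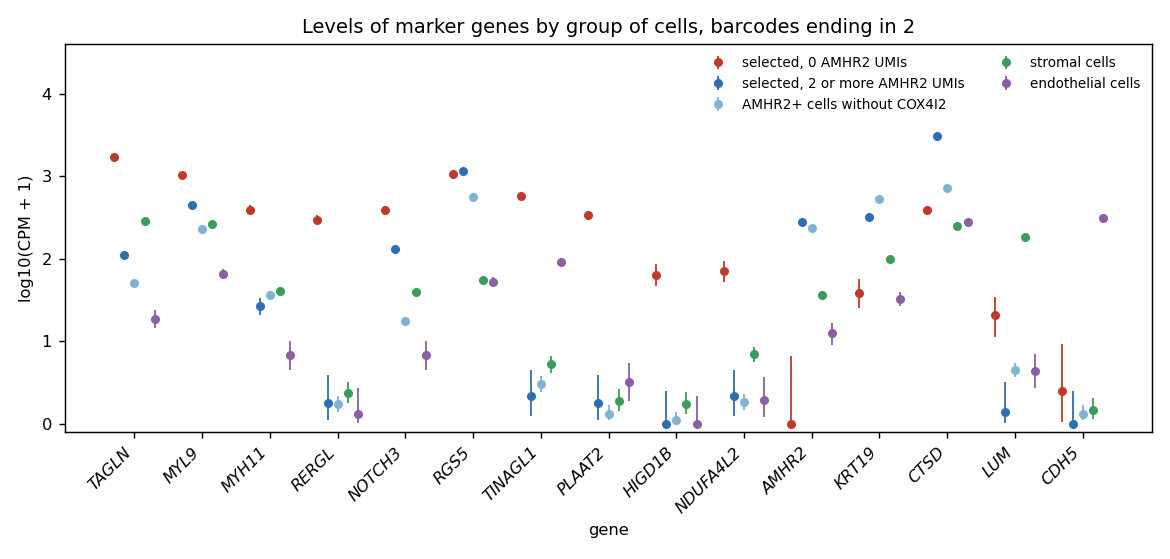
Levels of 15 genes as log10(CPM + 1), barcodes ending in 2, in AMHR2-free and AMHR2-bearing selected cells, AMHR2+ cells without COX4I2, stromal cells and endothelial cells. Points are summed UMIs of a group with exact 95% Poisson bars. TINAGL1, RERGL, PLAAT2, HIGD1B and NDUFA4L2 are high in the AMHR2-free cells and near 0 in the AMHR2-bearing cells, and RGS5 is high in both.

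Genes of the NOTCH pathway were higher than in stromal cells in both classes. Of 8 NOTCH genes with at least 10 CPM in stromal cells, 5 were at least 2-fold higher in AMHR2-free cells and 6 in AMHR2-bearing cells, with 0 lower in either and median log2 ratios of 1.32 and 1.29. In the AMHR2-bearing cells 404 of all 8143 genes (4.96%) were 2-fold higher than in stromal cells and 470 (5.77%) lower, with a median of −0.03. The receptor NOTCH3 stood at 385 CPM (340 to 436) in AMHR2-free cells, 128 (114 to 143) in AMHR2-bearing cells, 38.4 in stromal cells and 16.5 in AMHR2+ cells. Its ligand JAG1 stood at 354, 134, 50.8 and 32.1 CPM in the same order. Of the target genes, HEYL stood at 111 and 90.9 CPM in the selected classes against 33.0 in stromal cells. HEY2 was higher in AMHR2-bearing cells (175 CPM, 159 to 192) than in AMHR2-free cells (93.0 CPM, 71.3 to 119), against 12.8 in stromal cells. NOTCH3 was thus higher in the AMHR2-free and HEY2 in the AMHR2-bearing cells, by intervals that cover counting error alone.

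Of the platelet-derived growth factor genes that the rule did not use, PDGFRA, the receptor of stromal cells, stood at 12 CPM in AMHR2-free and 1.20 in AMHR2-bearing cells against 68.3 in stromal cells. A low level of PDGFRA in part follows from the choice of stromal cells, for which it was a marker. The ligand gene PDGFB stood at 21.0 CPM (11.5 to 35.2) in 10 AMHR2-free cells against 58.4 in endothelial cells.

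Among 23 genes of vascular signals with at least 10 CPM in stromal cells, 7 were at least 2-fold higher in AMHR2-free cells and 0 lower, with a median log2 ratio of 0.19. ANGPT1, the TIE2 ligand known from mural cells, stood at 147 CPM (119 to 179) in 30 cells against 19.9 in stromal and 2.79 in AMHR2-bearing cells. SLIT3, an axon and vessel guidance ligand, stood at 166 CPM (137 to 200) in 21 cells against 26.6 in stromal cells, and 0 UMIs of it were found in AMHR2-bearing cells. The placental growth factor PGF stood at 96.0 against 37.2 CPM. CXCL12, a chemokine, stood at 409 CPM, close to the 377 CPM of stromal cells, and at 12.4 CPM in AMHR2-bearing cells. CXCL12 therefore separated the selected classes from each other and not the AMHR2-free cells from stroma.

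Of 14 genes of vasoactive signalling at that level in stromal cells, 4 were at least 2-fold higher in AMHR2-free cells and 0 lower (median log2 ratio 0.66). The 4 were RGS5, RGS16, GUCY1A1 and GUCY1B1. GUCY1A1 and GUCY1B1, both subunits of the nitric oxide receptor guanylate cyclase, stood at 300 and 162 CPM against 57.5 and 31.4 in stromal cells. Both were also found in AMHR2-bearing cells, at 338 and 135 CPM. The endothelin receptor gene EDNRA stood at 169 CPM (140 to 204) in AMHR2-free cells and 222 (213 to 231) in stromal cells.

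The matrix genes differed by kind. Of 23 interstitial matrix genes with at least 10 CPM in stromal cells, 13 were at least 2-fold lower and 1 higher in AMHR2-free than in stromal cells (median log2 ratio −1.07). COL1A1 stood at 2777 against 9158 CPM, DCN at 639 against 2632 and LUM at 19.5 against 184. LUM, OGN and POSTN helped to choose the stromal cells, so their lower levels in part follow from that choice. The 1 higher gene was BGN, a small proteoglycan, at 489 CPM (437 to 545) against 101. Of 13 basement membrane genes, 2 were higher and 1 lower (median 0.25). The 2 were the collagen IV genes COL4A1 and COL4A2, at 202 and 697 CPM against 62.3 and 313. In AMHR2-bearing cells another pair of collagen IV genes stood out: COL4A3 at 213 CPM (196 to 232) and COL4A4 at 132 CPM (118 to 147), against 19.5 and 18 in AMHR2-free cells. The laminin genes LAMB1 (799 against 169 CPM) and LAMA4 (310 against 85.5 CPM) were also higher in the AMHR2-bearing cells.

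Of 10 adhesion genes with at least 10 CPM in stromal cells, NCAM1 and the integrin ITGA4 were 2-fold higher in AMHR2-free cells and ALCAM lower (median log2 ratio 0.17). Below that level in stromal cells, the collagen-binding integrin ITGA1 stood at 132 against 8.07 CPM and ESAM at 69.0 against 0.544 CPM. Of 18 transcription factors, MEF2C, HEY1, HEY2 and HEYL were higher and KLF4, TCF21 and HIC1 lower (median −0.01). MYOCD, the co-activator of smooth muscle genes, stood at 69.0 CPM (50.5 to 92.0) in 15 cells against 8.34, and TCF21, a stromal factor that also chose the stromal cells, stood at 181 against 614 CPM. TBX2 stood at 174 against 93.8 CPM in stroma and 4.38 in AMHR2-bearing cells. Of 8 oxygen genes 0 were 2-fold higher or lower (median 0.19). EPAS1, an oxygen-regulated factor under 10 CPM in stromal cells, stood at 133 against 3.72 CPM, and at 134 CPM in endothelial cells. EBF1, listed as a mural factor, had 1 UMI in the AMHR2-free cells.

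**Figure D3:**
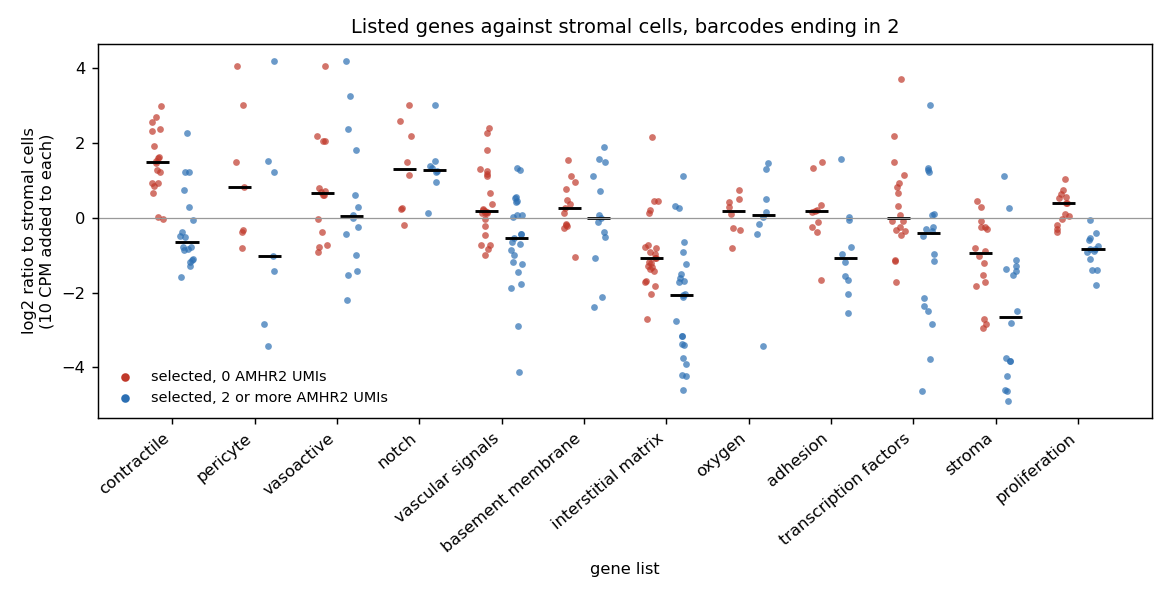
Log2 ratio to stromal cells (10 CPM added to each) of listed genes without the rule's genes, barcodes ending in 2, in AMHR2-free (red) and AMHR2-bearing (blue) cells. Points are genes with at least 10 CPM in stromal cells and bars are medians. The contractile genes have a median of 1.49 in the AMHR2-free cells, and the median of the NOTCH genes is above 0 in both classes.

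Not all AMHR2-free cells carried the same mural genes. RERGL was found in 20 of the 62 cells and HIGD1B in 22, and 5 cells held both. HIGD1B was thus in 25% of RERGL cells, against 22 of all 62, and whether this overlap is low was not tested. Of the 20 RERGL cells, 19 held PLAAT2, 18 MYH11, 4 NDUFA4L2 and 3 KCNJ8. Of the 22 HIGD1B cells, 12 held PLAAT2, 10 MYH11, 14 NDUFA4L2 and 12 KCNJ8. Among all 62 cells, 30 held PLAAT2, 33 MYH11, 22 NDUFA4L2 and 20 KCNJ8. PLAAT2 and MYH11 in the HIGD1B cells therefore lay near their shares over all 62. CSPG4 was found in 13 cells of either set, so it did not separate them. Median depths were 8282 UMIs for the 15 cells with RERGL only and 5699 for the 17 with HIGD1B only. These sets were chosen after the data were seen, and a gene with no UMI in a cell may have been missed at this depth.

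One cell of 103034 UMIs held 40.7% of the UMIs of the cells with RERGL only, so levels of that set are given for the other 14 cells, and the value of all 15 is added where it differs by more than 1.5 times. MYH11 stood at 1168 CPM (1001 to 1354) in the 14 cells (728 in all 15) and at 122 CPM (66.7 to 205) in the 17 cells with HIGD1B only. TAGLN stood at 4204 CPM (3882 to 4545; 2558 in all 15) against 1080, and MAP3K7CL at 654 CPM (415 in all 15) against 26.1 CPM. CNN1 stood at 194 CPM (130 in all 15 cells) against 0 UMIs, which allows up to 26.1 CPM. MYL9 stood at 1948 CPM (1202 in all 15) against 1098. SYNPO2, another contractile gene, did not follow them, at 13.3 CPM (7.91 in all 15) against 34.9 CPM, with a few UMIs in either set. The NOTCH ligand JAG1 (634 against 113 CPM) and the cytokine genes IL17B (247 against 17.4 CPM, 154 in all 15) and IL6 (287 against 17.4 CPM, 182 in all 15) were also higher in the cells with RERGL only. ACTA2, a gene of the rule, stood at 8641 CPM (5318 in all 15) against 1725 CPM.

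Of the genes that were higher in the 17 cells with HIGD1B only, NDUFA4L2 stood at 235 CPM (155 to 342) against 13.3 (1.62 to 48.2; 7.91 in all 15) in the cells with RERGL only. COL4A1 stood at 610 CPM (475 to 771) against 133 (79.1 in all 15), and ENPEP, an angiotensin-cleaving peptidase, at 183 CPM (113 to 280) against 73.4 (36.6 to 131; 47.4 in all 15), with overlapping intervals. RGS5 stood at 1952 CPM (1705 to 2225) against 1208 (1038 to 1397; 747 in all 15). Other pericyte genes lay the other way, with NOTCH3 at 305 against 814 CPM (510 in all 15), or had overlapping intervals, with CSPG4 at 105 against 173 CPM (107 in all 15) and HEYL at 95.8 against 160 CPM (103 in all 15). TINAGL1 stood at 1046 against 961 CPM (601 in all 15). KCNJ8 and COX4I2, genes of the rule, stood at 227 against 13.3 CPM (7.91 in all 15) and 1333 against 681 CPM (415 in all 15). Of the remaining 25 cells, with neither gene, the other deep cell held 28.7% of the UMIs. The 24 without it had 255 CPM TINAGL1, 623 CPM RGS5 and 1241 CPM ACTA2, each below both sets.

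**Figure D4:**
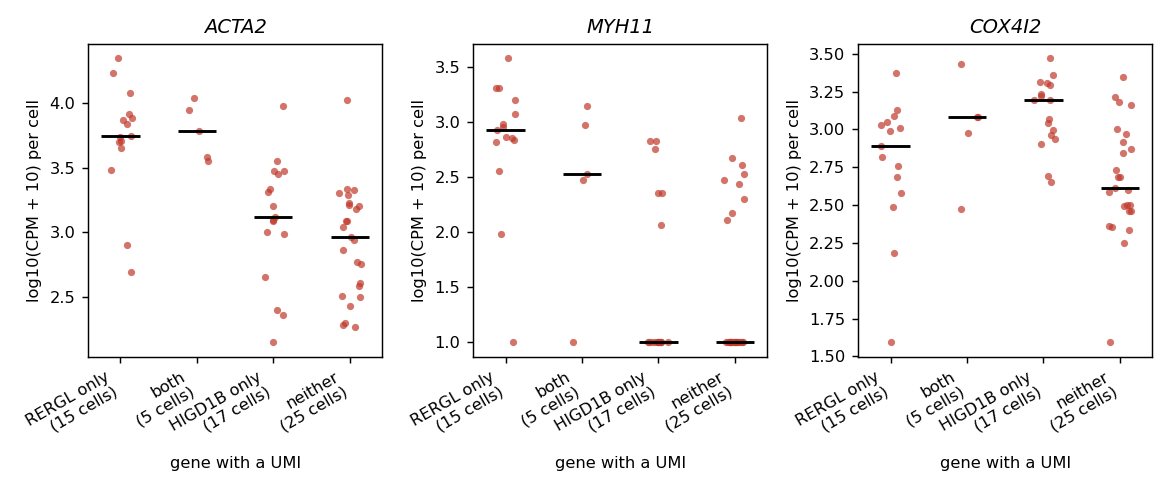
ACTA2, MYH11 and COX4I2 as log10(CPM + 10) in each AMHR2-free cell, barcodes ending in 2, by whether the cell has a UMI of RERGL only, of both genes, of HIGD1B only or of neither. Points are cells and bars are medians. ACTA2 and MYH11 are highest where RERGL is found, and COX4I2 has its highest median in the cells with HIGD1B only.

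In the AMHR2-bearing cells the 23 contractile genes summed to 2781 CPM against 3214 in stromal cells and 9574 in AMHR2-free cells, with CASQ2 and KCNMB1 at 0. The 19 pericyte genes summed to 1524 CPM against 626 and 2428, most of it RGS5. The AMHR2-bearing cells were compared with AMHR2+ cells, which share the AMHR2 condition but have no COX4I2. Of 8295 genes, 25 (0.301%) were higher and 23 (0.277%) lower. Their AMHR2 level was 277 CPM (257 to 299) against 237. LYPD1, an acetylcholine receptor modulator, stood at 292 CPM (271 to 314) against 28.0, CBLN2, a secreted synapse organizer, at 213 against 19.8 and FN1, fibronectin, at 348 against 56.7. NOTCH3 was called higher too (ratio 5.21). CTSD, a lysosomal protease, stood at 3086 CPM (3018 to 3156) against 725, and SFRP4, a WNT inhibitor, at 158 against 26.9.

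Among the lower genes were MSLN (7.57 against 236 CPM), UPK3B (1.59 against 112 CPM) and KISS1 (31.5 against 258 CPM). MSLN and UPK3B are known from the ovarian surface epithelium, and the AMHR2+ cells therefore include cells with those markers. Of 9 listed granulosa genes with at least 10 CPM in AMHR2+ cells, 5 were at least 2-fold lower and 0 higher than there, with a median log2 ratio of −1.03. Of all 8386 genes at that level, 196 (2.34%) were lower and 153 (1.82%) higher, with a median of −0.06. Among the 5 was KITLG, the KIT ligand, at 53.8 against 168 CPM. FOXL2, a granulosa transcription factor, was found in 8 of 103 cells at 3.59 CPM, against 2.34 in AMHR2+ cells, so it was low in both. Among contractile genes at that level in AMHR2+ cells, 2 of 16 (TAGLN and LMOD1) were 2-fold higher and 0 lower (median log2 ratio 0.30). Among pericyte genes, 3 of 5 (RGS5, NOTCH3 and HEYL) were higher and 0 lower (median 1.03). Of 18 contractile genes with at least 10 CPM in stromal cells, TPM1, LMOD1 and FLNA were 2-fold higher and 5 lower than in stromal cells. The median log2 ratio to stromal cells was −0.64, and TAGLN was among the lower at 110 CPM against 281.

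Between the selected classes, 163 of 8414 genes (1.94%) were higher in the AMHR2-free and 95 (1.13%) higher in the AMHR2-bearing cells, of which AMHR2 itself follows from the division. The former counted TINAGL1, PLAAT2, RERGL, CXCL12, SLIT3 and TAGLN. The latter counted ADGRG1, an adhesion receptor (275 against 19.5 CPM), NR1H4, the bile acid receptor (154 against 9.0 CPM), ANXA3 (267 against 22.5 CPM) and CTSD. With endothelial cells as comparison, 158 of 8782 genes (1.8%) were higher in AMHR2-free cells and 139 (1.58%) lower.

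Taken as 1 group, the 178 cells showed little of this. Levels of the whole group are summed UMIs, so deep cells weigh more. Of the 3347473 UMIs, the 104 AMHR2-bearing cells held 2543456 and the 64 AMHR2-free cells 683637. For the whole group a call also needed a ratio of at least 2 in each barcode ending, where ending 1 held 3 selected cells. Of 8646 genes, 12 (0.139%) were higher than in all other cells and 19 (0.22%) lower. Apart from 2 genes of the rule these 12 were RERGL, TINAGL1, NOTCH3, LYPD1, CTSD, TAGLN, SFRP4, ANXA3, LMOD1 and HEYL. Several come from 1 class each: RERGL was found in 25 of the 178 cells and TINAGL1 in 51, while LYPD1 was found in 109. Against stromal cells 47 of 8440 genes were higher and 47 lower (0.557% each), led by RGS5 and LYPD1 on the higher side and LUM and C7, both of which helped to choose the stromal cells, on the lower. Against endothelial cells 79 of 8844 (0.893%) were higher, led by RGS4 and RGS5, and 116 (1.31%) lower. In the whole group 7 of 21 contractile genes with a mean of at least 10 CPM were at least 2-fold higher than in stromal cells and 1 lower (median log2 ratio 0.37), and 6 of 9 pericyte genes were higher and 3 lower (1.40). Over all 8436 genes these shares were 5.43% and 3.62% (median 0.02). Counting only genes with at least 10 CPM in stromal cells, 5 of 19 contractile genes were higher and 1 lower (median 0.08), and 3 of 7 pericyte genes higher and 3 lower (median −0.73), against 3.9% higher and 3.88% lower of 8283 genes. The direction of the pericyte median therefore rests on genes that are low in stroma.

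Markers of other cell types were also found in the AMHR2-free cells, and their part in the results above was not tested. The 14 endothelial genes of the table summed to 370 CPM (range over cells 0 to 2490) against 3391 in endothelial cells, with at least 2 UMIs in 19 of 62 cells. Of the markers that chose the endothelial cells CDH5 and KDR had 1 UMI each, TIE1 had 3 in 1 cell, and EGFL7 had 43 UMIs in 12 cells (64.5 CPM against 1418). ESAM had 46 UMIs in 26 cells (69.0 against 210 CPM). VWF had 135 UMIs, 126 of them in 1 cell. Of 10 macrophage genes, 6 including TYROBP, C1QA, C1QB and C1QC were at 0, and the sum was 70.5 CPM. Of 18 stromal genes, 2 were at 0 and the sum was 2377 CPM against 4559 in stromal cells, and 21 of all 64 AMHR2-free cells met the stromal marker conditions. The 16 proliferation genes summed to 952 CPM against 739 in stromal cells and 338 in AMHR2-bearing cells. Of 999 UMIs of HBB, a hemoglobin gene, 954 lay in 1 cell. VWF and HBB are both among the 115 genes called higher, so these calls rest on 1 cell each.

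A pair of AMHR2-free cells had over 60000 UMIs, 103034 and 67789, or 15.5% and 10.2% of the UMIs of the 62. The first held 56 UMIs of FIGLA, an oocyte transcription factor, and these cells held 119 of the 145 germ cell marker UMIs. Without them VWF fell from 202 to 18.1 CPM, FIGLA from 91.5 to 10.1 and CSF1R, a macrophage receptor, from 63.0 to 2.02. FIGLA and CSF1R are also among the 115 genes called higher than in stromal cells, so their calls rest on this pair. TAGLN, MYH11, RERGL and NOTCH3 were higher without them, at 2250, 482, 385 and 494 CPM. In the 26 cells with fewer than 2 UMIs of each of the endothelial, erythroid, germ cell and macrophage lists, TAGLN stood at 1617, MYH11 at 333, RERGL at 210, HIGD1B at 118 and TINAGL1 at 639 CPM. No doublet caller was run, and none is stated for the table.

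Over all cells of the table, the genes of the rule and several mural genes differed between barcode endings. COX4I2 stood at 66.3 CPM (64.6 to 68.0) in ending 2 and 5.11 (4.55 to 5.71) in ending 1, a ratio of 13.0. The ratio was 4.86 for KCNJ8, 5.32 for TINAGL1, 4.36 for NDUFA4L2, 4.21 for HIGD1B and 3.97 for NOTCH3. It was lower for PDGFRB (2.04), CSPG4 (1.87), ACTA2 (1.78), RGS5 (1.67) and ABCC9 (1.35). It was 1.30 for RERGL, 1.15 for MYH11, 1.04 for TAGLN and 0.834 for CNN1. Cells that met the rest of the rule with fewer than 2 COX4I2 UMIs numbered 125 (1.18%, 0.981 to 1.40%) in ending 1 and 213 (2.06%, 1.79 to 2.35%) in ending 2. Cells with at least 2 UMIs summed over HIGD1B, NDUFA4L2, ABCC9 and CSPG4 numbered 43 in ending 1, of which 1 was selected, and 243 in ending 2, of which 43 were. These counts of cells use fixed UMI minima and were not corrected for the lower depth of ending 1. The stage, the library and the ending cannot be told apart here.

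**Figure D5:**
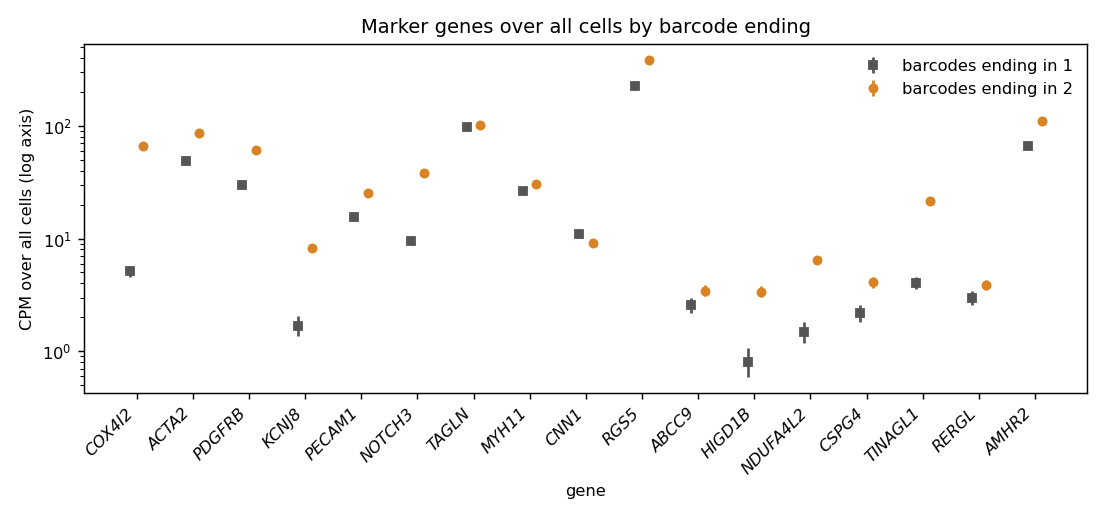
Levels of 17 genes over all cells of the table (CPM, log axis) in barcodes ending in 1 and in 2, with exact 95% Poisson bars. COX4I2 differs most between the endings, and TAGLN, MYH11 and CNN1 differ least.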

How the data were processed

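Single-cell RNA-seq (10x 3′ kit v3) was done on ovaries of 1 fetus at E84 and 1 at E116. The authors mapped reads to Macaca_fascicularis_5.0 with Cell Ranger 3.0.2, imported the matrix into Seurat, and deposited whole-number UMI counts without normalization. Their stated limit of 200 to 3000 genes is not applied in the table, where 4675 cells exceed 3000. The table has 18446 genes, 15233 with a symbol and 3213 with an Ensembl ID only, for which no name was found. Totals per cell ran from 499 to 120898 UMIs with a median of 3756.

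Cells were taken as 1 pooled sample. Members were chosen by UMI thresholds and the comparison cells likewise, without clusters. Of stromal and AMHR2+ cells, 112 belong to both. A level is the sum of a gene's UMIs over a group as CPM, with an exact Poisson interval (95%). Intervals of shares are Clopper-Pearson (95%). At 0 counts the limit is 3 counts. Genes with a mean of at least 10 CPM were called at a ratio of 4 after adding 10 CPM, and for the whole group also at a ratio of 2 within each ending. A gene needs at least 30 CPM in the comparison group to be called lower. List counts use a ratio of 2, leave out the rule's genes and count listed genes with at least 10 CPM in the comparison group unless a filter on the mean is named. That limit was set once the levels were known. Cells were thinned to 2000 UMIs for shares at equal depth.

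Named genes were those of the rule and of 20 lists, the 25 genes of largest ratio to all other cells, the 12 of largest and smallest ratio to stromal cells, the 12 of largest ratio to endothelial cells, and the 5 of largest ratio each way between endings. The members and lists were chosen with earlier results of these data known. The AMHR2 division, the RERGL and HIGD1B sets, and the genes named for these were chosen after the data were seen. Alternatives changed the UMI thresholds, PECAM1, gene and mitochondrial limits, marker cells, pseudocount, the mean over cells, endings, thinning and the filter. The calls and intervals were tried on simulated Poisson counts of pooled groups. These hold no differences between cells, and the condition within each ending was not part of that trial. Several genes, among them MCAM, PLN and MYL6, have no symbol in the table and were not analysed here. Python 3.11.15, numpy 2.4.6, scipy 1.17.1, pandas 2.3.3 and matplotlib 3.10.9 were used.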

Additional observations from a re-analysis of the deposited data

How the results depend on the processing

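The number of selected cells, 178, became 351 at 1 UMI of COX4I2 and ACTA2, 109 at 3 UMIs, 56 with 200 to 3000 genes, 59 with at most 10% mitochondrial UMIs, 18 without cells holding 2 UMIs of another type's markers, and 20 with the rule applied to cells thinned to 2000 UMIs. Of these, AMHR2-free cells were 125, 38, 44, 52 and 17 in the first 5 settings. They were the majority under the gene and mitochondrial limits. They were also the majority without marker-holding cells, but AMHR2 is itself among those markers. That setting removes every AMHR2-bearing cell by construction, so its majority says nothing about the division. The share with ending 2, 98.3%, became 94.3% at 1 UMI, 94.9% under the mitochondrial limit and 100% without marker-holding cells. Genes past the calls against all other cells, 31, became 11 at 1 UMI, 58 and 54 under the gene and mitochondrial limits, 104 with 1 CPM added, 51 as a mean over cells and 528 in ending 1 alone, where 3 cells were selected. Against stromal cells, 94 became 23 at 1 UMI, 62 at 3 UMIs, 48 and 43 under the gene and mitochondrial limits, 205 with 1 CPM added, 526 in ending 1 and 234 in AMHR2-bearing cells of ending 2. Against endothelial cells, 195 became 74 with PECAM1 cells kept, 333 under the gene limit, 436 with 1 CPM added, 716 in ending 1, 353 in ending 2 and 117 with a filter of 50 CPM. Contractile genes 2-fold higher than in stroma, 7, became 3 at 1 UMI, 12 under the gene limit, 17 under the mitochondrial limit, 12 without marker-holding cells, 11 in ending 1, and, with the filter on the mean level, 16 in AMHR2-free and 4 in AMHR2-bearing cells. Genes past 4-fold between AMHR2-free and stromal cells, 129, became 205 after thinning. The settings by AMHR2, the thinned rule and this thinning were chosen after the data were seen, and the cause of these changes was not tested. The other 53 values moved less. Of 715 values of 65 named genes, 430 moved by more than their interval. Of these, 44 changed sign, in 16 genes of which 0 were called in the whole group. For example, the log2 ratio to stroma of TBX2 went from −1.01 to 0.66 and 0.82 under the gene and mitochondrial limits, that of DES from −0.53 to 0.81 and 1.11, and that of TPM2 from −0.12 to 1.16 and 1.42. The called genes kept their sign. Without marker-holding cells no selected cell of ending 1 was left, so that setting gave no calls. No paired analysis was possible because each stage is 1 library and the columns carry no replicate numbers.

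Depth limits the sparse genes most: a gene such as HIGD1B or KCNJ8, with at most a few UMIs in a cell, can be missed in a cell that expresses it. Free RNA was not corrected for.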

Other observations

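Among selected cells, those of ending 1 (3 cells) had more SOST (510 against 12.1 CPM), SFRP2 (157 against 1.52), EGR4 (176 against 3.34), CRYM (196 against 6.37) and KISS1 (471 against 28.2) than the 175 of ending 2. BST2, ADIRF, AK3, CBLN2 and COL4A3 had 0 UMIs in the 3 cells and 639, 367, 195, 174 and 170 CPM in the 175, though 0 UMIs in these cells allow up to 58.8 CPM. In stromal cells KISS1 (754 against 130 CPM) was also higher and BST2 (21.6 against 484 CPM) lower in ending 1.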
